A study of Mus musculus with 12 samples.

Results

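The genes described here are 38 transcriptional targets of the tumour suppressor p53, chosen by gene symbol and matched by Ensembl ID, out of 52636 genes in the count files. All 38 had a row, and 37 passed the filter on low counts; Trp73 did not. They were measured in bulk RNA from 12 pancreatic ductal adenocarcinomas of KPC mice on a C57BL/6 and 129 background. The groups were Cdh11 +/- treated with gemcitabine (HET gemcitabine), Cdh11 +/- untreated (HET untreated), Cdh11 +/+ treated with gemcitabine (WT gemcitabine) and Cdh11 +/+ untreated (WT untreated), with 3 tumours in each. Cdh11 encodes cadherin 11, a cell adhesion protein of fibroblasts. Gemcitabine is a nucleoside analogue that stalls DNA replication and is a standard drug against pancreatic cancer. KPC mice, as a model, express mutant Trp53 in the pancreatic epithelium through a Cre recombinase, and all 4 groups share this background. The whole tumour was extracted, so fibroblasts, vessels and immune cells, in which the Cre is not expected to act, contribute RNA as well. The sources used here do not give age, dose, schedule or the time between the last dose and collection. In bulk tissue, fewer cells of a type and less RNA per cell cannot be told apart.

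p53 is a transcription factor that is stabilised when DNA is damaged, binds response elements near its targets and raises their transcription. The products halt the cell cycle (Cdkn1a, Btg2, Gadd45a), bring about mitochondrial apoptosis (Bax, Bbc3, Pmaip1) or death receptor signalling (Fas, Tnfrsf10b), repair DNA and supply nucleotides (Ddb2, Xpc, Rrm2b), or limit p53 itself (Mdm2, Ppm1d). The missense p53 mutants common in pancreatic cancer bind these elements poorly, and many copies of the mutant protein build up in tumour cells. The comparison of treated with untreated tumours asks whether the target genes are higher after a drug that stalls replication, and the comparison between genotypes asks whether that differs with Cdh11 dose.

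A p53 response element is a pair of half-sites of 10 bases, each with a 4-base core at its positions 4 to 7, and a spacer may lie between them. RefSeq promoter windows (GRCm38.p6, 250 bases before to 50 after each annotated start) were available for 29 of the 38 members. Allowing up to 3 mismatches to the consensus in all, at most 2 in a half-site, and a spacer of up to 3 bases, 7 members held a match, and 5.59% of 27025 genes with a window did. With up to 2 mismatches, 5 members and 1.55% of genes held one. The best matches are shown because they are the letters in these windows closest to the p53 consensus, with the core of each half-site in capitals and each sequence read 5′ to 3′ on the strand of its gene.
Cdkn1a: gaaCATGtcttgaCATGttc
Ccng1: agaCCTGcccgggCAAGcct
Bax: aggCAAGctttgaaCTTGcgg
Sesn1: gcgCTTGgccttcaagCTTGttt
Trp73: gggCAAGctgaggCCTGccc
Bbc3: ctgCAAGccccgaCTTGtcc
Tigar: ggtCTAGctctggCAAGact
The Cdkn1a match lies at chr17:29090928-29090947 on the plus strand, with 1 mismatch, and begins 51 bases before the annotated start. The Ccng1 match, also with 1 mismatch, lies at chr11:40755462-40755481 on the minus strand. Those of Bax (chr7:45467079-45467099, minus strand), Sesn1 (chr10:41887253-41887275, plus strand) and Trp73 (chr4:154097220-154097239, minus strand) have 2 mismatches, with a spacer of 1 base in Bax and 3 bases in Sesn1. Those of Bbc3 (chr7:16309486-16309505, plus strand) and Tigar (chr6:127109746-127109765, minus strand) have 3. The matches of Sesn1, Trp73 and Bbc3 lie inside the gene as annotated in GENCODE, in windows of later starts. A match describes letters and says nothing of binding in these tumours.

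The libraries held 39388328 to 56559413 counts (median 45785246), and levels are given as CPM, that is counts scaled to library size with TMM factors. Cdh11 itself had 109, 141 and 72.0 CPM in HET gemcitabine tumours, 148, 115 and 73.7 CPM in HET untreated tumours, 142, 62.2 and 123 CPM in WT gemcitabine tumours and 225, 283 and 165 CPM in WT untreated tumours. The HET untreated tumours all lay below the WT untreated ones (log2 fold change -0.998, edgeR adjusted p = 0.329), and the treated genotypes overlapped (-0.02, adjusted p = 0.996). The tumours also differed in tissue. Summed over 10 fibroblast markers, the level was 4373 to 8515 CPM in HET gemcitabine, 4277 to 7131 CPM in HET untreated, 6122 to 14910 CPM in WT gemcitabine and 11290 to 17490 CPM in WT untreated tumours. Summed over 10 markers of duct and tumour epithelium, it was 3677 to 4989 CPM in HET gemcitabine, 4427 to 5995 CPM in HET untreated, 4519 to 9430 CPM in WT gemcitabine and 3476 to 5350 CPM in WT untreated tumours. The 8 endothelial markers summed to 307 to 364 CPM in HET gemcitabine, 206 to 339 CPM in HET untreated, 239 to 327 CPM in WT gemcitabine and 360 to 569 CPM in WT untreated tumours. The 9 macrophage markers summed to 1579 to 2948 CPM in HET gemcitabine, 751 to 1268 CPM in HET untreated, 690 to 1568 CPM in WT gemcitabine and 984 to 4046 CPM in WT untreated tumours. Every marker of these 4 lists had reads in every tumour. Normal pancreas also differed. The 10 acinar markers summed to 4.29 to 9.29 CPM in HET gemcitabine, 6.5 to 32.4 CPM in HET untreated, 5.58 to 200.8 CPM in WT gemcitabine and 9.20 to 497 CPM in WT untreated tumours, and Pnlip and Try4, among them, had 0 counts in all HET tumours. The 7 islet markers summed to 0.722 to 49.4 CPM in HET gemcitabine, 0.139 to 3.20 CPM in HET untreated, 0.697 to 12.2 CPM in WT gemcitabine and 13.7 to 236 CPM in WT untreated tumours. The insulin genes Ins1 and Ins2 were both at 0 in HET untreated replicate 2 and WT gemcitabine replicate 2. Xist, which silences an X chromosome in female cells, was 1322 CPM or higher in the 3 WT gemcitabine tumours and at most 1.12 CPM in the 3 HET gemcitabine tumours. Among treated tumours, Cdh11 genotype and this sex-linked difference therefore cannot be told apart. The comparisons of treated with untreated tumours use the same treated groups, and Xist of the untreated tumours is not given here.

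Trp53 mRNA, which here includes any transcript of the mutant allele, was present in every tumour. It had 35.8, 41.2 and 46.0 CPM in HET gemcitabine tumours and 32.9, 23.1 and 51.5 CPM in HET untreated tumours. It had 46.2, 67.0 and 46.5 CPM in WT gemcitabine tumours and 28.6, 34.3 and 31.6 CPM in WT untreated tumours. The WT gemcitabine tumours all lay above the WT untreated ones, and in HET tumours the groups overlapped. The log2 fold change for gemcitabine was 0.19 (SE 0.27, unadjusted p = 0.493) in HET tumours and 0.76 (SE 0.27, unadjusted p = 0.0178) in WT tumours, neither past an adjusted p of 0.05 over all 24065 genes tested with edgeR's quasi-likelihood test (adjusted p = 0.895 and 0.559). The HET effect minus the WT effect was -0.57 (SE 0.39, adjusted p = 0.590), so they were not shown to differ.

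No p53 target passed the test for gemcitabine, in either direction or either genotype, and for most the 95% interval of the averaged effect lay below a 2-fold rise. Averaged over both genotypes, 0 of the 37 members tested passed an adjusted p of 0.05 in edgeR (0.00831% of all genes did), and 0 passed in DESeq2 (0.117% of all genes). At an unadjusted p under 0.05, 0 members were higher (2.25% of all genes) and 2 were lower (2.2% of all genes). The median log2 fold change of the members was -0.09, with 17 above 0 and 20 below, and the median of all genes was -0.01. The members' median turned above 0 without HET untreated replicate 2 (0.0315) or WT gemcitabine replicate 2 (0.0079). The 95% interval lay below a 2-fold rise for 34 of the 37 members, as it did for 73.7% of all genes, and within 2-fold in both directions for 27 of them, against 57.8% of all genes. In the average, the members whose interval reached past a 2-fold rise were Rprm (-1.66 to 2.28), Gdf15 (-0.74 to 2.03) and Perp (-0.32 to 1.17). Within each genotype fewer members were bounded in this way. The interval lay below a 2-fold rise for 32 members in HET tumours (14229 of 24065 genes) and 27 in WT tumours (13882 of 24065). It lay within 2-fold both ways for 22 members in HET (8735 of all genes) and 17 in WT (8333 of all genes). In WT tumours the interval of Perp ran from 0.25 to 2.39. Summed over all 38 genes, the level was 1436 to 1506 CPM in HET gemcitabine tumours, 1405 to 1896 CPM in HET untreated tumours, 1456 to 1785 CPM in WT gemcitabine tumours and 1596 to 1709 CPM in WT untreated tumours.

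**Figure D1:**
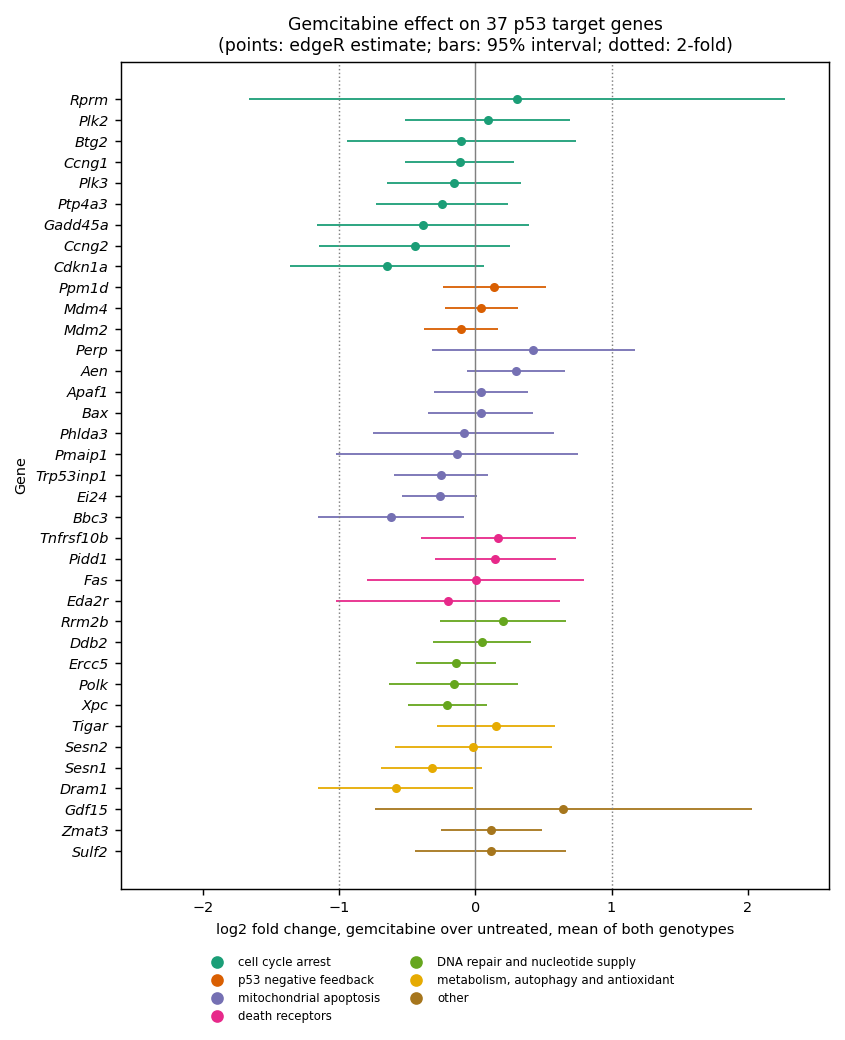
Log2 fold change of gemcitabine over untreated tumours, averaged over both genotypes, for the 37 members tested; points are edgeR estimates, bars 95% intervals, colours roles, and dotted lines a 2-fold change either way. The intervals of Bbc3 and Dram1 lie below 0, no interval lies above 0, and those of Rprm, Gdf15 and Perp reach past a 2-fold rise.

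Among the 9 cell cycle arrest genes, Cdkn1a, which encodes the cyclin-dependent kinase inhibitor p21, varied widely between untreated tumours. It had 26.5, 21.6 and 20.4 CPM in HET gemcitabine tumours and 28.7, 80.2 and 20.4 CPM in HET untreated tumours. It had 38.4, 27.8 and 48.1 CPM in WT gemcitabine tumours and 37.3, 40.2 and 71.7 CPM in WT untreated tumours. The treated and untreated tumours overlapped in both genotypes, and 1 HET untreated and 1 WT untreated tumour stood above all the others. On average the difference, in log2, came to -0.65 (95% interval -1.36 to 0.06, edgeR adjusted p = 0.942), and to -0.242 without HET untreated replicate 2. In HET tumours alone it was -0.92 (SE 0.46), but -0.10 without HET untreated replicate 2. In WT tumours it was -0.38 (SE 0.46).

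Ccng1, which encodes cyclin G1 and carries one of the closest matches to the consensus, had 74.1, 67.5 and 94.5 CPM in HET gemcitabine, 68.9, 48.6 and 91.6 CPM in HET untreated, 85.5, 70.3 and 50.7 CPM in WT gemcitabine and 85.2, 101 and 87.4 CPM in WT untreated tumours. The groups overlapped in both genotypes, and the average log2 fold change was -0.12 (95% interval -0.52 to 0.28). The other 7 arrest genes (Ccng2, another cyclin G; the antiproliferative Btg2; the stress sensor Gadd45a; Rprm, which encodes reprimo; the polo-like kinases Plk2 and Plk3; and the phosphatase gene Ptp4a3) had average log2 fold changes between -0.45 for Ccng2 and 0.31 for Rprm. Of the 9 arrest genes, 2 were above 0 in the average and 7 below (median -0.16), and 0 passed the test. Rprm rested on few reads: 0, 9 and 12 counts in HET gemcitabine, 0, 0 and 8 in HET untreated, 19, 2 and 6 in WT gemcitabine and 21, 9 and 20 in WT untreated tumours. Its 95% interval was the widest of the members, and 3 HET tumours had no read of it.

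Of the 3 genes that feed back on p53, 0 passed the test for gemcitabine in edgeR. Mdm2, the ubiquitin ligase that removes p53, had 46.1, 44.7 and 55.9 CPM in HET gemcitabine, 59.0, 61.9 and 44.5 CPM in HET untreated, 59.0, 58.9 and 66.8 CPM in WT gemcitabine and 69.9, 57.4 and 62.9 CPM in WT untreated tumours. The highest tumour was 1.57 times the lowest, and treated and untreated groups overlapped in both genotypes. Its average was -0.11 on the log2 scale (95% interval -0.38 to 0.16, edgeR adjusted p = 0.953). Mdm4, which inhibits p53 on DNA, was at 0.05 (-0.23 to 0.32), and Ppm1d, the phosphatase that switches the damage signal off, was at 0.14 (-0.24 to 0.52). All 3 intervals of the averaged effect lay within 2-fold both ways.

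Of the 9 genes of mitochondrial apoptosis, 4 were above 0 in the average and 5 below (median -0.09), and 0 passed. Bax, whose product opens the outer mitochondrial membrane, had 20.3, 23.6 and 21.7 CPM in HET gemcitabine, 21.7, 23.6 and 25.1 CPM in HET untreated, 27.0, 26.5 and 20.5 CPM in WT gemcitabine and 13.4, 26.4 and 25.6 CPM in WT untreated tumours. All but 1 WT untreated tumour lay in a narrow band, and the average log2 fold change was 0.04 (95% interval -0.35 to 0.43). Phlda3, a repressor of Akt signalling, had 18.4, 11.7 and 11.7 CPM in HET gemcitabine, 7.82, 24.4 and 10.6 CPM in HET untreated, 27.5, 14.0 and 16.8 CPM in WT gemcitabine and 16.5, 18.8 and 28.7 CPM in WT untreated tumours. It overlapped in both genotypes, with an average of -0.09 (-0.75 to 0.58).

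Bbc3, which encodes the BH3-only protein PUMA, had 3.23, 3.05 and 2.05 CPM in HET gemcitabine tumours and 3.67, 8.29 and 6.06 CPM in HET untreated tumours. It had 5.25, 6.39 and 5.01 CPM in WT gemcitabine tumours and 4.43, 6.43 and 7.26 CPM in WT untreated tumours. The 3 HET gemcitabine tumours were the lowest of all 12, and the WT groups overlapped. The log2 fold change was -1.11 (SE 0.35, unadjusted p = 0.00826, edgeR adjusted p = 0.593) in HET tumours, -0.12 (SE 0.34) in WT tumours and -0.62 (SE 0.24, unadjusted p = 0.0274, adjusted p = 0.942) in the average.

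Ei24, which encodes an endoplasmic reticulum protein first found as a p53-induced gene, had 34.1, 42.4 and 32.7 CPM in HET gemcitabine, 55.1, 55.8 and 59.9 CPM in HET untreated, 57.7, 42.4 and 46.7 CPM in WT gemcitabine and 48.3, 47.6 and 38.8 CPM in WT untreated tumours. In HET tumours the treated group lay wholly below the untreated one (log2 fold change -0.64, SE 0.18, unadjusted p = 0.00389, edgeR adjusted p = 0.593). In WT tumours the groups overlapped (0.12, SE 0.18). For gemcitabine in HET tumours, 9 of 10 fibroblast, 7 of 8 endothelial and 9 of 9 macrophage markers were above 0. Their medians were 0.37, 0.42 and 0.81. All 8 T cell markers (median 1.765) and 2 of 10 epithelial markers (median -0.46) were above 0. In these lists 0 markers passed the test. The part of these tissues in the Bbc3 and Ei24 values was not tested.

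Trp53inp1, which encodes a p53-induced nuclear protein with roles in cell death and autophagy, gave the smallest p of any member in WT tumours. It had 161, 182 and 109 CPM in HET gemcitabine tumours and 107, 107 and 129 CPM in HET untreated tumours. It had 92.1, 91.6 and 111 CPM in WT gemcitabine tumours and 227, 149 and 178 CPM in WT untreated tumours. The WT gemcitabine tumours all lay below the WT untreated ones, and the HET groups overlapped. The log2 fold change was 0.40 (SE 0.22, edgeR adjusted p = 0.673) in HET tumours and -0.91 (SE 0.22, unadjusted p = 0.00185, adjusted p = 0.559) in WT tumours.

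Aen, an exonuclease gene of the apoptosis response, had 30.4, 39.4 and 36.5 CPM in HET gemcitabine, 40.4, 30.9 and 39.0 CPM in HET untreated, 41.4, 51.6 and 37.3 CPM in WT gemcitabine and 22.7, 36.9 and 23.0 CPM in WT untreated tumours. The WT gemcitabine tumours lay above the WT untreated ones by a small margin (log2 fold change 0.66, SE 0.23, unadjusted p = 0.0159, edgeR adjusted p = 0.559), and in HET tumours the groups overlapped (-0.06, SE 0.23). Perp, a desmosomal membrane protein gene of epithelia, had 24.6, 45.0 and 81.9 CPM in HET gemcitabine, 74.7, 64.1 and 71.4 CPM in HET untreated, 44.7, 96.7 and 130 CPM in WT gemcitabine and 55.4, 31.4 and 21.8 CPM in WT untreated tumours. Its groups overlapped in both genotypes, with log2 fold changes of -0.47 (SE 0.48) in HET and 1.32 (SE 0.49, unadjusted p = 0.0199, adjusted p = 0.559) in WT tumours. Of the 10 epithelial markers, 2 were above 0 for gemcitabine in HET tumours (median -0.46) and 8 in WT tumours (median 0.53), with 0 past the test, and their part in the Perp values was not tested.

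**Figure D2:**
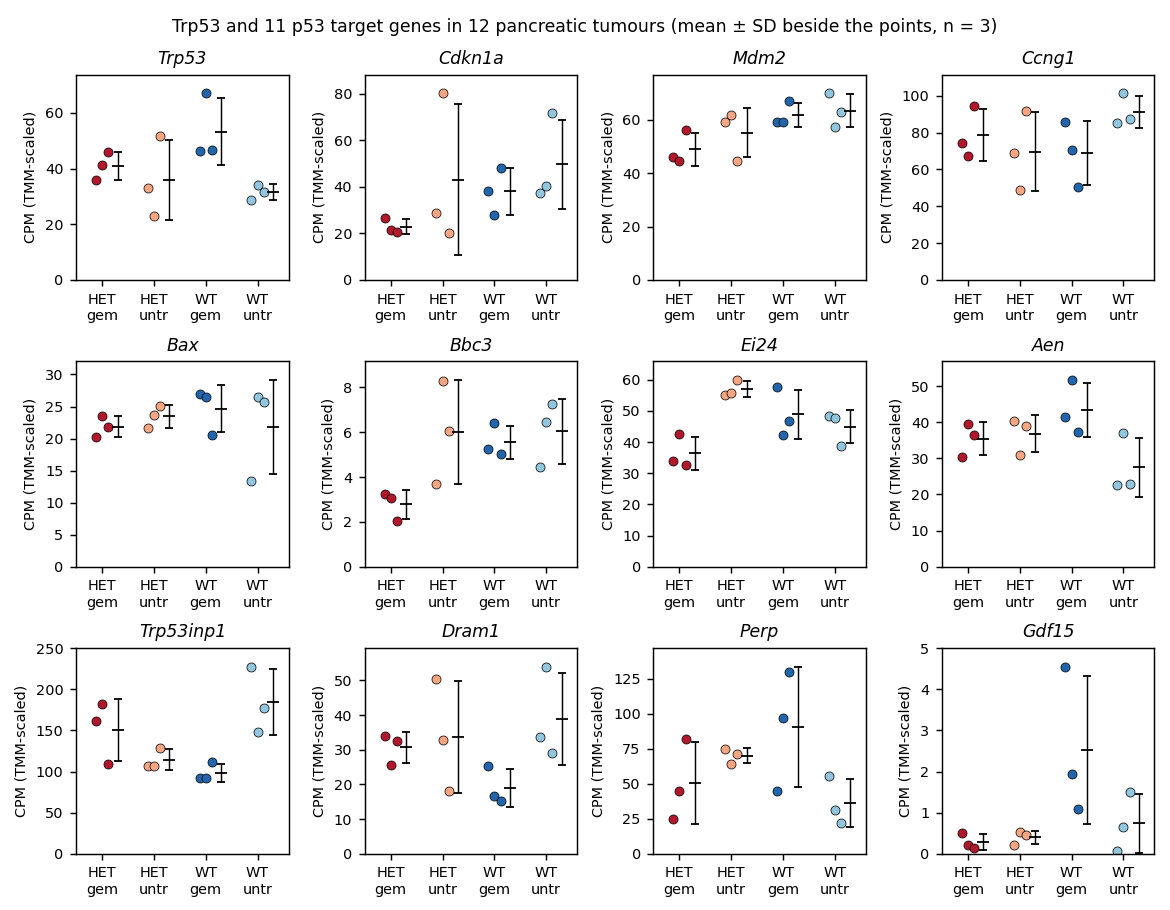
CPM (TMM-scaled, linear axes from 0) of Trp53 and 11 members in each of the 12 tumours, with the mean ± SD beside the points (n = 3 per group). Bbc3 is lowest in the 3 HET gemcitabine tumours, Trp53inp1 is highest in WT untreated and in 2 of 3 HET gemcitabine tumours, and Cdkn1a has 1 high tumour in each untreated group.

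Of the 4 death receptor genes, Fas, Tnfrsf10b (a TRAIL receptor) and Pidd1 (a death domain adaptor) had average log2 fold changes of 0.00, 0.17 and 0.15. Eda2r, a receptor of the TNF family, had 1.61, 3.31 and 3.15 CPM in HET gemcitabine, 3.49, 1.23 and 4.43 CPM in HET untreated, 5.77, 4.04 and 2.59 CPM in WT gemcitabine and 3.11, 7.61 and 3.71 CPM in WT untreated tumours. Its average was -0.20 (95% interval -1.02 to 0.62), with overlap in both genotypes.

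The 5 genes of DNA repair and nucleotide supply all had average 95% intervals within 2-fold both ways. Rrm2b, the p53-induced small subunit of ribonucleotide reductase, was at 0.20 (95% interval -0.26 to 0.66). Ddb2 and Xpc, both damage sensors of nucleotide excision repair, were at 0.05 and -0.20, the repair nuclease gene Ercc5 at -0.14 and the bypass polymerase gene Polk at -0.16.

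Among the 4 genes of metabolism, autophagy and antioxidant defence, Dram1, a lysosomal regulator of autophagy, had 34.0, 25.6 and 32.6 CPM in HET gemcitabine, 50.4, 32.8 and 18.1 CPM in HET untreated, 25.3, 16.5 and 15.1 CPM in WT gemcitabine and 33.7, 53.9 and 29.1 CPM in WT untreated tumours. The WT gemcitabine tumours all lay below the WT untreated ones (log2 fold change -1.04, SE 0.37, unadjusted p = 0.0166, edgeR adjusted p = 0.559), while the HET groups overlapped (-0.13, SE 0.36). Sesn1, a stress-induced inhibitor of mTORC1 signalling, was also apart in WT tumours (-0.66, SE 0.24, adjusted p = 0.559) and at 0.02 in HET tumours. Sesn2, a relative of Sesn1, was at -0.02 in the average (95% interval -0.59 to 0.56). All 10 fibroblast, 8 endothelial and 9 macrophage markers were below 0 for gemcitabine in WT tumours, with medians of -0.79, -0.70 and -0.92. So were all 10 acinar (median -1.67) and 7 islet markers (median -5.06), and 0 markers of these lists passed the test. The part of these tissues in the Trp53inp1, Dram1 and Sesn1 values was not tested.

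Gdf15, a secreted stress cytokine, was low in every group: 0.505, 0.210 and 0.140 CPM in HET gemcitabine, 0.220, 0.518 and 0.457 CPM in HET untreated, 4.55, 1.95 and 1.08 CPM in WT gemcitabine and 0.0662, 0.646 and 1.499 CPM in WT untreated tumours. The 3 HET gemcitabine tumours held 25, 9 and 7 counts and the 3 WT gemcitabine tumours 208, 84 and 45. Treated and untreated tumours overlapped in both genotypes. Its log2 fold change for gemcitabine was -0.48 (SE 0.91) in HET and 1.77 (SE 0.88, edgeR adjusted p = 0.598) in WT tumours. Zmat3, a zinc finger RNA-binding protein gene, was higher in all HET gemcitabine than in all HET untreated tumours, at 43.5, 39.6 and 34.3 CPM against 31.2, 31.5 and 33.1 CPM, by a log2 fold change of 0.29 (SE 0.24, adjusted p = 0.776). Sulf2, which encodes a heparan sulfatase, was at 0.11 in the average.

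Trp73, the p53 family member that failed the filter, had 1, 6 and 5 counts in HET gemcitabine tumours and 22, 0 and 2 counts in HET untreated tumours, and 0 counts in all 6 WT tumours. More than 10 counts were seen in 1 tumour alone, HET untreated replicate 1, at 0.483 CPM. No fold is given for it.

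Within each genotype the number of members whose groups did not overlap was close to the background. In HET tumours 1 member was higher in every treated tumour (Zmat3; 6.64% of all genes) and 2 were lower (Bbc3 and Ei24; 6.08% of all genes). In WT tumours 1 was higher (Aen; 6.53% of all genes) and 3 were lower (Trp53inp1, Sesn1 and Dram1; 7.17% of all genes). Counted at an unadjusted p under 0.05, 0 members were higher and 2 lower in HET tumours (4.42% and 3.48% of all genes), and 2 were higher and 3 lower in WT tumours (4.05% and 4.55% of all genes). At an adjusted p of 0.05, 0 members passed in either genotype with edgeR (0.00831% of all genes in HET and 0% in WT) and 0 with DESeq2 (0.647% of all genes in HET and 0.429% in WT). The median log2 fold change of the members was -0.11 in HET tumours (all genes -0.03) and -0.04 in WT tumours (all genes 0.01). Without HET untreated replicate 2 the HET median was 0.04.

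The effects of gemcitabine in HET and WT tumours differed most, by p, for 3 members of the apoptosis group. The HET effect minus the WT effect was 1.31 for Trp53inp1 (SE 0.32, unadjusted p = 0.00158, edgeR adjusted p = 0.252). It was -0.77 for Ei24 (SE 0.25, adjusted p = 0.277) and -1.79 for Perp (SE 0.68, adjusted p = 0.320). With DESeq2, Trp53inp1 reached an adjusted p of 0.0217 (difference 1.33), the 1 member that passed there, where 2.93% of all genes did. With edgeR 0 members passed (0.00831% of all genes). At an unadjusted p under 0.05, 1 member was higher and 2 were lower (7.14% and 5.52% of all genes). The median difference of the members was -0.13, against -0.07 for all genes. All 10 fibroblast, 8 endothelial and 9 macrophage markers had a difference above 0 (medians 1.31, 1.09 and 1.90). So did 8 of 8 T cell (median 2.75), 9 of 10 acinar (3.47) and 7 of 7 islet markers (8.16). Of the 10 epithelial markers, 1 was above 0 (median -0.95). In these lists 0 markers passed with edgeR, and the part of these tissues in the members' differences was not tested.

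**Figure D3:**
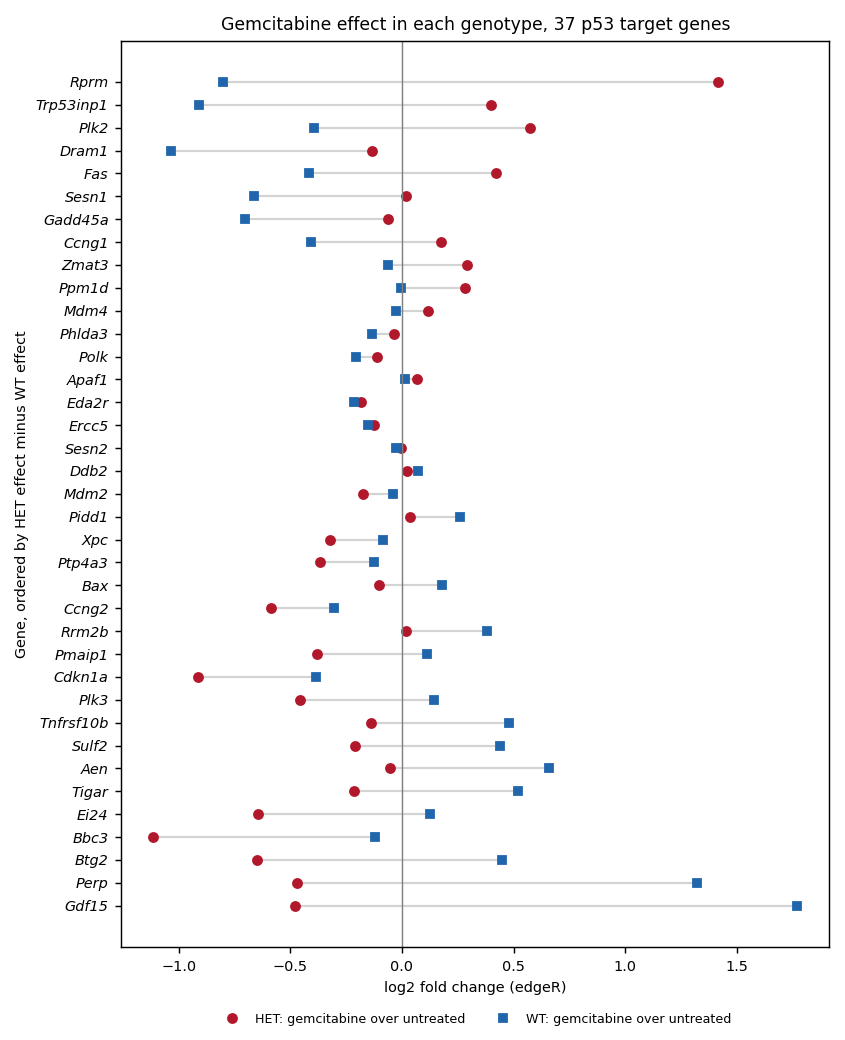
Log2 fold change of gemcitabine over untreated tumours for each of the 37 members, in HET tumours (circles) and in WT tumours (squares), ordered by the difference of the 2 effects. Rprm, Trp53inp1 and Plk2 lie to the right in HET tumours, Gdf15, Perp, Btg2 and Bbc3 lie to the right in WT tumours, and members such as Mdm2, Ddb2, Ercc5 and Sesn2 have nearly the same value in both.

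Between genotypes, the untreated comparison gave 0 members past the threshold with edgeR (0.0166% of all genes) and 0 with DESeq2 (2.71% of all genes). At an unadjusted p under 0.05, 2 members were higher and 2 lower in HET (5.51% and 6.65% of all genes). Trp53inp1 was lower in all 3 HET untreated than in all 3 WT untreated tumours (log2 fold change -0.69, SE 0.22, unadjusted p = 0.00997, edgeR adjusted p = 0.274). Tigar, a regulator of glycolysis, had 13.5, 11.8 and 16.4 CPM in HET untreated and 10.04, 9.20 and 5.76 CPM in WT untreated tumours (0.74, SE 0.28, adjusted p = 0.333). In treated tumours it had 8.80, 12.6 and 14.5 CPM in HET and 9.86, 12.5 and 13.5 CPM in WT, with overlap. Xpc had 58.6, 39.2 and 48.3 CPM in HET untreated and 33.7, 34.7 and 38.8 CPM in WT untreated tumours (0.45, SE 0.19, adjusted p = 0.369). Its treated tumours were at 34.9, 38.2 and 43.7 CPM in HET and 38.3, 30.7 and 32.0 CPM in WT. The untreated genotypes did not overlap for 5 members that were higher in HET (Ei24, Perp, Ddb2, Xpc and Tigar; 7.36% of all genes) and 3 that were lower (Rprm, Trp53inp1 and Zmat3; 8.41% of all genes). The median of the members was -0.01, against 0.04 for all genes. All 10 fibroblast markers had log2 fold changes below 0 in this comparison (median -1.40), as did 9 of 9 macrophage (median -0.94) and 7 of 8 endothelial markers (median -0.81). So did 9 of 10 acinar and 7 of 7 islet markers, each of these with every HET untreated tumour below every WT untreated one. The part of these tissues in the members' values was not tested.

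Among treated tumours, Gdf15 was lower in HET than in WT, with no overlap (log2 fold change -3.13, SE 0.94, unadjusted p = 0.00665, edgeR adjusted p = 0.546). DESeq2 gave it an adjusted p of 0.0411 (-3.14), the 1 member that passed there, where 0.954% of all genes did, and 0 passed with edgeR (0.00416% of all genes). Bbc3 followed (-0.999, SE 0.35, unadjusted p = 0.0148, adjusted p = 0.570), and Trp53inp1 was at 0.62 (SE 0.22, adjusted p = 0.580), with overlap. At an unadjusted p under 0.05, 2 members were higher and 3 lower (4.66% and 2.89% of all genes). Cdkn1a, Ccng2, Mdm2, Bbc3, Apaf1 and Gdf15 were lower in every HET gemcitabine than in every WT gemcitabine tumour (6 members; 6.59% of all genes), and Mdm4, Fas and Dram1 were higher (3 members; 7.12% of all genes). The members' median was -0.24, with 11 above 0 and 26 below, and the median of all genes was -0.03. Without WT gemcitabine replicate 1 the members' median was -0.131, and without replicate 3 of that group it was -0.155. For Cdkn1a the log2 fold change was -0.74 (SE 0.46, adjusted p = 0.808) and for Mdm2 -0.33 (SE 0.17, adjusted p = 0.737). Trp53 itself was also lower in every HET gemcitabine tumour, by the margin of 46.0 against 46.2 CPM (-0.38, SE 0.27, adjusted p = 0.849). Of the 10 epithelial markers 1 was above 0 in this comparison (median -0.54) and of the 8 T cell markers all were (median 3.41; summed level 2.81 to 28.8 CPM in HET gemcitabine and 2.30 to 3.52 CPM in WT gemcitabine tumours, with Cd3g at 0 in WT gemcitabine replicate 1 and Cd3d at 0 in WT gemcitabine replicate 2), and their part in these values was not tested.

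Related gene lists were read in the same way. Of 24 further p53 targets, 23 were tested and 0 passed in the average with edgeR, with a median of -0.05, 8 above 0 and 15 below. Pml, which encodes the scaffold of nuclear bodies, had a log2 fold change of -0.07 (SE 0.21) in HET and 0.94 (SE 0.22, unadjusted p = 0.00112, adjusted p = 0.559) in WT tumours. The stress gene Ddit4 had an average of -0.94 (SE 0.34, adjusted p = 0.942), and Igfbp3, which encodes a growth factor binding protein, was at -0.997 (SE 0.36, adjusted p = 0.942). Of 18 genes for p53 and its regulators, 9 were above 0 in the average and 9 below, and of 19 BCL2 family and caspase genes 18 were tested, with 10 above 0 and 8 below; 0 passed in either list. The 17 cell cycle genes that p53 and p21 are known to lower were above 0 in 16 cases in the average (median 0.56, range -0.77 to 0.93), 14 in HET tumours (median 0.38) and 16 in WT tumours (median 0.77), with 0 past the test and 0 at an unadjusted p under 0.05 in any of these. Their summed level was 351 to 1033 CPM in HET gemcitabine, 237 to 1001 CPM in HET untreated, 228 to 1148 CPM in WT gemcitabine and 267 to 443 CPM in WT untreated tumours, so all the groups overlapped.

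Gdf15 and Sesn2 are also known targets of the ATF4 stress response. Of 10 genes of that response, 1 was above 0 in HET tumours (median -1.18) and 7 in WT tumours (median 0.29), with 0 past the test. Asns, asparagine synthetase, had a log2 fold change of -1.29 (SE 0.38, unadjusted p = 0.00587, edgeR adjusted p = 0.593) in HET and 0.96 (SE 0.38, unadjusted p = 0.0272, adjusted p = 0.559) in WT tumours, and the difference of these effects was -2.24 (SE 0.53, adjusted p = 0.252). Btg2 and Plk2 are also known to respond early to growth signals and stress. Of 12 immediate early genes, 1 was above 0 in HET tumours (median -0.69) and 3 in WT tumours (median -0.28), with 0 past the test.

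How the members varied together was read against Cdkn1a. Over the 12 tumours, log2 CPM of 36 members was set against that of Cdkn1a, and 0 of the 36 relations passed an adjusted permutation p of 0.05. By Pearson r the strongest was Phlda3, with r = 0.76 (permutation p = 0.00412, adjusted p = 0.0774) and Spearman rho = 0.755 (permutation p = 0.00670, adjusted p = 0.0676). Its r was 0.615 without the 2 tumours farthest from the median of Cdkn1a (HET untreated replicate 2 and WT untreated replicate 3), and 0.80 after centring each group on its mean. Ccng2 (r = 0.737), Sesn2 (0.708) and Bbc3 (0.70) followed, and Fas ran the other way (r = -0.735). By Spearman rho the strongest was Mdm2, at 0.79 (permutation p = 0.00368, adjusted p = 0.0676), with r = 0.668 and 0.753 without the same 2 tumours. After centring on group means r was 0.475 for Mdm2, 0.622 for Ccng2, 0.774 for Sesn2, 0.51 for Bbc3 and -0.735 for Fas. Shuffles within groups gave these centred values an unadjusted exact p of 0.37 for Mdm2, and of 0.0417 for Phlda3. After adjustment 0 of the 36 centred relations passed. Ercc5 had the highest centred r (0.877). Without centring its r was 0.656 over all 12 tumours and -0.03 without those 2 tumours. The median r was 0.038, with 22 of 36 above 0. All values share library, depth and tissue makeup. The same relations were not computed for all genes, so no background share is given.

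By tumour, HET untreated replicate 2 was the highest of the 12 for 7 members (Cdkn1a, Plk3, Mdm4, Bbc3, Pmaip1, Ercc5 and Sulf2), and it was the highest for 9.39% of all genes. HET untreated replicate 3 was the lowest for 9 members, and for 14.6% of all genes. HET gemcitabine replicate 3 was the highest for 0 members and for 7.55% of all genes. The spread within groups, as an SD on the log2 CPM scale, ran from 0.176 for Ercc5, 0.178 for Mdm2 and 0.178 for Mdm4 to 1.21 for Gdf15, and was 0.617 for Cdkn1a.

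**Figure D4:**
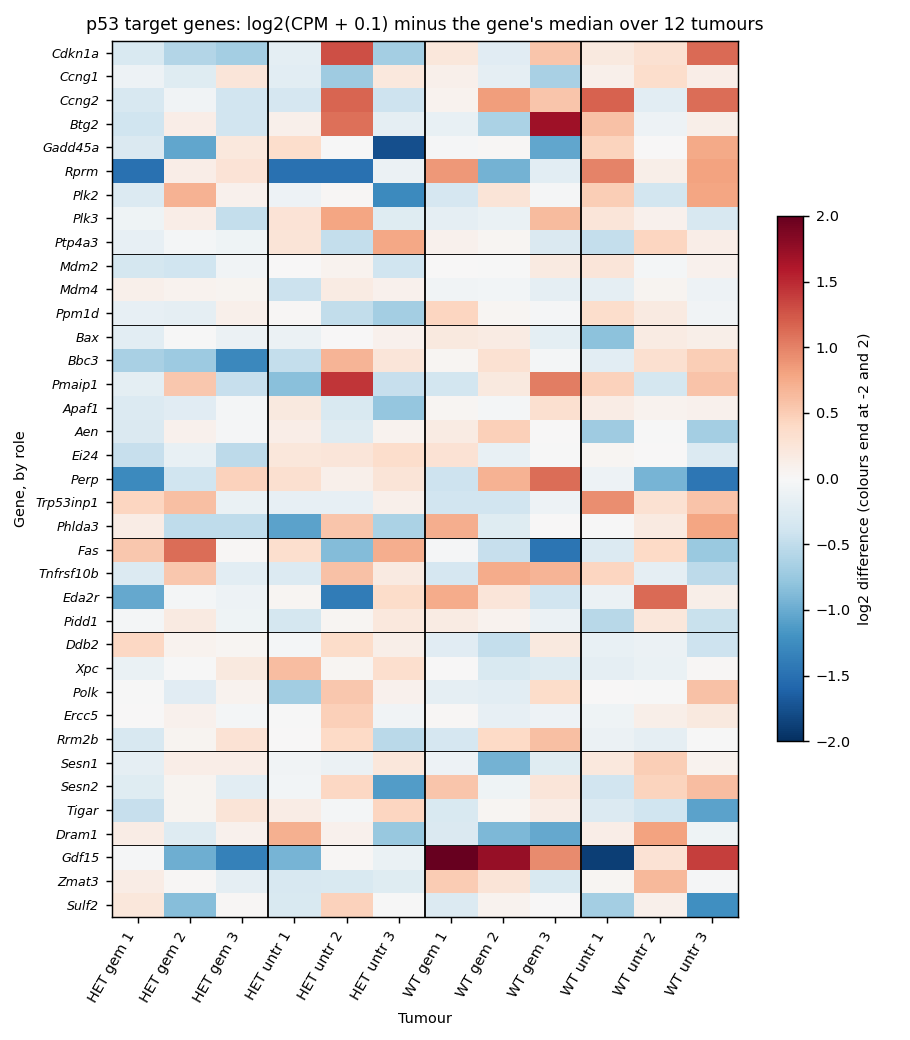
Log2(CPM + 0.1) of the 37 members tested in each of the 12 tumours, minus the gene's median over the 12, with genes grouped by role (horizontal lines) and tumours by group (vertical lines); red is higher, blue lower, and colours end at -2 and 2. No block of rows is red throughout a treated group, and HET untreated replicate 2 is red for Cdkn1a, Ccng2, Btg2 and Pmaip1.

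Between genes, levels were compared per kilobase of merged exon as the mean CPM over 12 tumours. Perp was the most abundant member at 31.7 CPM per kilobase, followed by Btg2 (27.6), Sulf2 (27.0), Pmaip1 (26.1) and Ccng1 (22.0). Bax was at 14.6, Mdm2 at 11.3 and Cdkn1a at 10.8 CPM per kilobase, at ranks 9, 11 and 13 of the 38. Eda2r (0.623), Gdf15 (0.533), Rprm (0.130) and Trp73 (0.0118) were the lowest.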

How the data were processed

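Stranded libraries had been made from rRNA-depleted total RNA of 12 snap-frozen tumours, per the labels' protocols. The deposited files hold expected counts per gene made by the authors with RSEM on GRCm38, per the submitters' processing notes. All values were whole, and 147 of the 52636 gene IDs had no symbol in GENCODE. The aligner, annotation release and strand setting are not given there. In GENCODE, 9 members share exon bases with a gene on the opposite strand, Ddb2 most (23.8% of its exon bases, with Acp2), and 1 with a gene on the same strand (Bax). The members and all lists were chosen with earlier results of these data known. Members were matched by symbol and Ensembl ID. Libraries held 39388328 to 56559413 counts, and the biological coefficient of variation over all genes was 46.4%. Counting error is large for members with few reads (Rprm, Gdf15 and Trp73).

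Counts were fitted in edgeR 4.0.16 (R 4.3.3; limma 3.58.1) with TMM factors (0.897 to 1.09), the default low-count filter (24065 genes kept), 1 mean per group and a robust quasi-likelihood F test. P-values were adjusted by Benjamini-Hochberg over all genes tested, and 0.05 was the threshold. The 6 comparisons were gemcitabine against untreated in HET, in WT and averaged, the difference of the 2 effects, and HET against WT in untreated and in treated tumours; those that share groups are not independent. CPM values are TMM-scaled. The labels number the samples of a group without saying that each is a separate animal, so p-values measure the spread between these samples. Values are given for every tumour for the 3 members with the smallest p in each comparison, any past the threshold, and Cdkn1a, Mdm2, Bax, Ccng1, Phlda3, Eda2r, Trp73 and Trp53; other lists name up to 4 genes with the smallest p. Zmat3, Rprm and Sesn1 were added after their values were seen. Correlations used 100000 permutations, two-sided, which shuffled all 12 tumours without regard to group. Correlations of centred values used all shuffles within groups. The fit was also run on simulated counts with known changes, and the share of changes it recovered is not given here. Alternatives were DESeq2 1.42.0, its size factors in edgeR, other low-count filters, only the groups compared, a replicate block, Xist or acinar covariates, and each tumour left out. Promoter sequences are from RefSeq (GRCm38.p6).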

Additional observations from a re-analysis of the deposited data

How the results depend on the processing

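With edgeR, 0 members passed the threshold in any comparison under every alternative run. DESeq2 passed 1 member for the difference of the gemcitabine effects (Trp53inp1, 1.33, adjusted p = 0.0217) and 1 for HET against WT treated tumours (Gdf15, -3.14, adjusted p = 0.0411), where edgeR passed 0 in each; the cause was not tested. With the acinar covariate the average changed sign for Phlda3 (0.00501) and Eda2r (0.0339). With 1 tumour left out in turn, the average ranged from -0.0893 to 0.126 for Bax, -0.218 to 0.00795 for Ccng1, -0.251 to 0.229 for Phlda3 and -0.387 to 0.0546 for Eda2r. The members' median then ranged from -0.15 to 0.0355 for gemcitabine in HET tumours and from -0.177 to 0.0717 for the difference, both highest without HET untreated replicate 2. It ranged from -0.0905 to 0.0315 for the average, from -0.119 to 0.0162 for WT tumours, from -0.193 to 0.112 for HET against WT untreated tumours and from -0.24 to -0.131 for HET against WT treated tumours. The Cdkn1a average ranged from -0.818 to -0.242. Deviations from group means of tumours with the same replicate number correlated at -0.247 to 0.136. These values cannot show whether equal numbers in the labels mean shared handling. With the replicate block 0 members passed in each comparison, as without it. The fit with only the groups compared could not be made for the average and the difference. With 3 tumours per group, the 95% intervals set the precision, and few reads limit Rprm, Gdf15 and Trp73.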
